A study of Mus musculus with 21 samples.

Results

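The transcriptional effect of continuous exposure to the JAK2 inhibitor CHZ868 was set, gene by gene, against the effect that was left after CHZ868 had been washed out. The members are the 11175 genes listed in both CHZ868 tables, of 11670 genes in the table of the 6 h exposure and 11355 in the washout table. For each gene the 6 h effect is the mean log2 CPM (read counts scaled to library size, on a log2 scale) of CHZ868-treated libraries minus that of DMSO-treated libraries. The washout effect is the mean of CHZ-wash libraries minus that of DMSO-wash libraries. A gene became a member by being listed in both tables, each filtered on low expression, and not by its effects.

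The cells were Ba/F3, a mouse pro-B cell line that normally needs interleukin-3 and that was made independent of it by retroviral expression of human JAK2 carrying the V617F change. All 12 libraries used here (4 groups of 3, of 21 libraries in the series) carry this oncogene, the controls included. CHZ868-treated cells had 1 µM CHZ868 for 6 h and DMSO-treated cells had the solvent alone. CHZ-wash cells had 1 µM CHZ868 for 1 h, were washed with PBS and were kept for 6 h without inhibitor, and DMSO-wash cells of the same experiment are their controls. The comparisons therefore share no control library, but they differ in the length of exposure, in the washing and in the experiment, and these cannot be told apart. No library was taken at the end of the 1 h exposure, so a gene back at its control level after washout cannot be told apart from a gene that had not yet changed when CHZ868 was removed. The labels do not say that replicates came from separate cultures, so the p-values measure the spread between these libraries only.

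JAK2 is a tyrosine kinase that phosphorylates STAT transcription factors, and V617F makes it active without cytokine. Phosphorylated STAT5 dimers enter the nucleus, bind DNA motifs called GAS (interferon-gamma activated site) and switch on survival genes such as Pim1 and Bcl2l1 together with the feedback inhibitors Cish and Socs1, while the interferon-stimulated genes are controlled through GAS and the ISRE (interferon-stimulated response element). CHZ868 is a type II inhibitor, which binds the kinase in its inactive conformation, whereas type I drugs such as ruxolitinib bind the active one.

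The promoters of Cish, Irf1, Gm12250 and Socs1 show these motifs at genes that carry the main pattern, a deep fall at 6 h and a washout effect near 0. These genes were chosen by hand, and of several promoters of a gene the one with most GAS, then ISRE, matches is shown. Other genes with this pattern held neither motif in the promoters searched, among them Pim1, Pim2 and Dusp6. The GAS searched was TTCNNNGAA and the ISRE core was GAAA, any 2 bases and GAAA, each on both strands, and matches are in capitals. The sequences are those of RefSeq on GRCm38.p6, 5′ to 3′ on the strand of the gene. For Cish the stretch spans the RefSeq transcript start (chr9:107296649-107296678, plus strand), and for the others it is the 120 bases before that start (Irf1 chr11:53769894-53770013, plus strand, Gm12250 chr11:58183723-58183842, plus strand, Socs1 chr16:10785537-10785656, minus strand).
Cish: ccgcccagttTTCCTGGAAagTTCTTGGAA
Irf1: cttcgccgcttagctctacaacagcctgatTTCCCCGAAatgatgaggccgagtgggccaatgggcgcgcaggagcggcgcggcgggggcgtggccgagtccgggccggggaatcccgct
Gm12250: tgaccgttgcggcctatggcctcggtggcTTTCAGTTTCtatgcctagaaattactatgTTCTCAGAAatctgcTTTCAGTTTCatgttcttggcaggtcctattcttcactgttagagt
Socs1: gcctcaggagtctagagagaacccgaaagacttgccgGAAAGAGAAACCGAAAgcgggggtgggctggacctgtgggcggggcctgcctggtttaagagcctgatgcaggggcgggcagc
Cish holds 2 GAS matches, Irf1 holds 1, Gm12250 holds 1 GAS match and 2 ISRE matches, and Socs1 holds 2 ISRE matches that overlap each other. Of 27025 mouse genes with a promoter in the table (250 bases before and 50 after the start), 9.55% hold a GAS match and 3.99% an ISRE match.

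The depth on listed genes ran from 7880000 to 10670000 reads per library. Of 16 marker genes of pro-B and Ba/F3 cells, 7 were listed in both tables, among them Csf2rb, Il3ra, Cd79a and Cd79b, while Pax5 and Il7r were not listed. No fibroblast or epithelial marker was listed in either table, and of the T cell, macrophage, erythroid and mast cell markers 1 of 8, 2 of 8, 2 of 7 and 1 of 6 were. DMSO-wash replicate 3 stood apart from the other controls. It differed from replicates 1 and 2 by 5.73 and 9.13 times the variance that read sampling gives, against 2.86 times between those 2, and the share of its reads on the mitochondrial genome was 5.35%, against 2.85% and 2.28%. That share was 1.37 to 1.43% in DMSO-treated, 4.94 to 6.38% in CHZ868-treated and 1.77 to 2.14% in CHZ-wash libraries. Each DMSO-wash library, not replicate 3 alone, thus lay above every DMSO-treated and every CHZ-wash library in this share. Most counts after washout are therefore given with and without DMSO-wash replicate 3, while intervals and many single genes are given with it only. Its part in the washout results beyond these values was not tested.

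**Figure D1:**
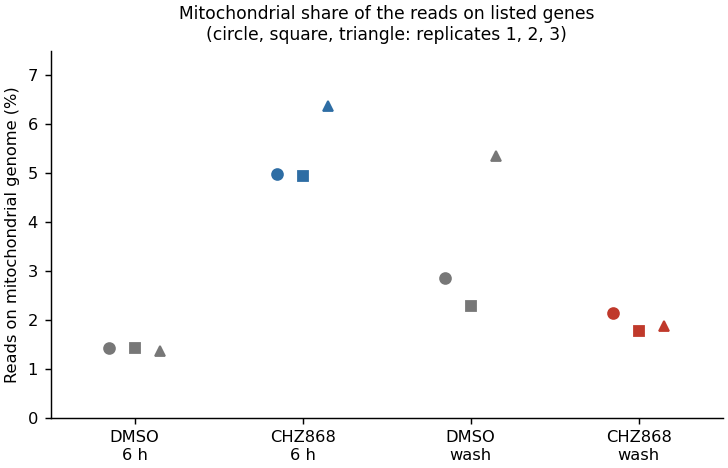
Share of the reads on listed genes that fell on the mitochondrial genome (y axis, percent) in each library of the 4 groups (x axis). The CHZ868-treated libraries lay between 4.94 and 6.38%, DMSO-wash replicate 3 at 5.35%, and each of the other libraries under 3%.

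Continuous CHZ868 changed 6214 of the 11670 genes tested, and far fewer genes were called in the washed cells. By limma with Benjamini-Hochberg adjustment (adjusted p under 0.05), 3130 genes were higher (26.8% of 11670) and 3084 lower (26.4%) after 6 h of CHZ868. After washout 222 genes were higher (1.96% of 11355) and 235 lower (2.07%), and 2767 had an unadjusted p under 0.05. The 2 effects themselves differed for 5261 of 11175 genes in a fit of all 12 libraries, 2663 with the higher value after washout (23.8%) and 2598 with the lower (23.2%). The washout count depended on single libraries. It was 0, 1 and 0 when CHZ-wash replicate 1, 2 or 3 was left out, with 1881 to 2137 genes at an unadjusted p under 0.05. For DMSO-wash replicates 1, 2 and 3 it was 0 (2059 unadjusted), 1298 and 1426. The last of these counts held all 457 calls made with every library, and split into 759 genes higher (6.68%) and 667 lower (5.87%). No washout call passed an adjusted p of 0.01 with all libraries.

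Genes with a 6 h effect past the threshold and of at least 1 log2 unit numbered 897, of which 591 fell and 306 rose. They were sorted by the share of the 6 h effect left after washout. For 504 of them (399 that fell, 105 that rose) the washout effect was near 0, within 25% of the 6 h effect on either side. A further 373 (177 and 196) overshot, with a washout effect of the opposite sign and over 25% of the size. Overshoot here is a gap to the DMSO-wash controls, and whether the CHZ-wash or the DMSO-wash libraries had moved was not tested. Only 20 (15 and 5) kept between 25 and 75% of the effect, and none kept 75% or more. Without DMSO-wash replicate 3 the near 0 class had 642 genes, the overshoot class 226 and the partly kept class 29, and none was kept. The shares ran on without a gap across the limits of the classes: Snhg7 at -25.02% counted as overshoot and Atl1 at -24.96% as near 0, with Pik3c2g at 24.5% and Shank3 at 25.8% on either side of the upper edge. The largest share left was 46.1%, for F630028O10Rik.

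**Figure D2:**
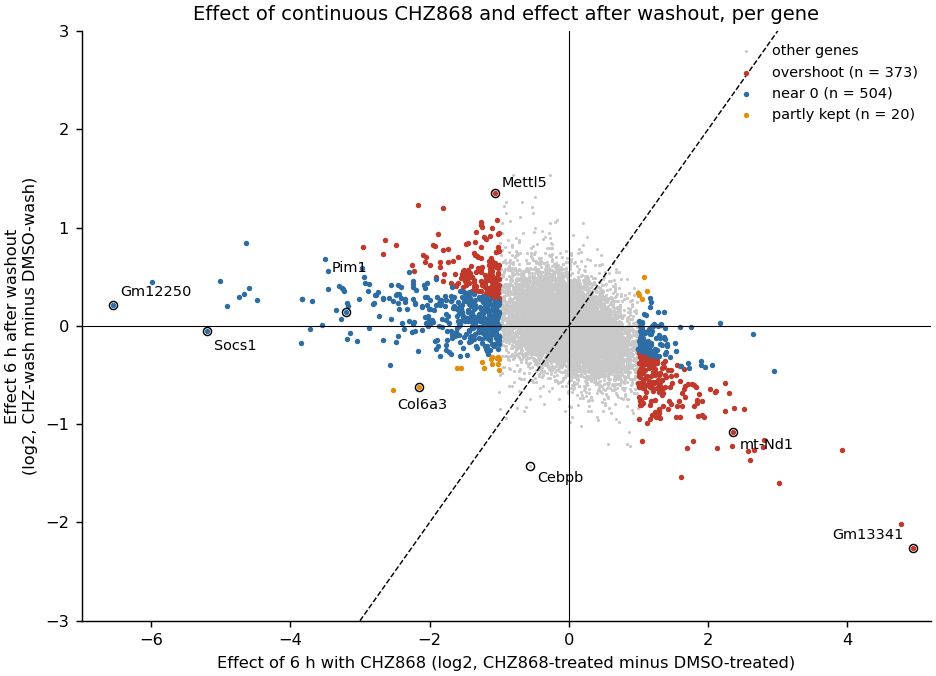
Effect of 6 h with CHZ868 (x axis, log2) against the effect 6 h after washout (y axis, log2) for 11175 genes, with the 897 genes of at least 1 log2 unit at 6 h coloured by class and 8 named genes circled. The dashed line marks equal effects: coloured genes lie off it, Gm12250 at -6.55 and 0.21, Socs1 at -5.20 and -0.05, and the genes that rose at 6 h lie mostly below 0 after washout, such as mt-Nd1 at 2.36 and -1.08.

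The 95% confidence interval of the washout effect bounds how much of the 6 h effect could remain. For 685 of the 897 genes (76.4%) the whole interval lay short of 25% of the 6 h effect, for 850 (94.8%) short of 50% and for all 897 short of 100%. Among genes that fell, the first of these held for 430 of 591 (72.8%), and among genes that rose for 255 of 306 (83.3%). Over every gene past the threshold at 6 h, small effects included, the intervals were wider relative to the effect: 5330 of 6040 genes (88.2%) were bounded below the full effect and 2867 (47.5%) below 25% of it. These intervals cover the error of the washout effect and take the 6 h effect as fixed.

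Past 0, the washout effect leaned away from the 6 h effect. It was above 0 for 455 of the 591 genes that fell (median 0.21) and below 0 for 285 of the 306 that rose (median -0.41). Leaving that replicate out gave 400 genes (median 0.14) and 258 genes (median -0.25). By the test of the washout libraries alone, 24 of the 591 were higher after washout (4.06%, background 1.96%) and 1 was lower, and 32 of the 306 were lower (10.5%, background 2.07%) and none higher. With DMSO-wash replicate 3 left out the numbers were 64 higher (10.8%, background 6.68%) and 5 lower, and 72 lower (23.5%, background 5.87%) and 3 higher. The lean was therefore clearer above the background for the genes that rose than for those that fell.

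Across all 11175 genes the 2 effects had a Pearson correlation of -0.44 (Spearman -0.42), and of -0.27 (Spearman -0.23) without DMSO-wash replicate 3. Genes are not independent, each point shares its libraries with all others, and no p is given. The correlation without any other single washout library lay between -0.42 and -0.49, and without mitochondrial genes it was -0.43. Each washout library, as its deviation from the mean of the 6, had a correlation with the 6 h effect of 0.20, -0.10 and 0.52 for DMSO-wash replicates 1, 2 and 3 and of -0.28, -0.31 and -0.32 for CHZ-wash replicates 1, 2 and 3. DMSO-wash replicate 3 was thus shifted in the direction that CHZ868 gave at 6 h, and the CHZ-wash libraries were alike. The 6 deviations of a gene sum to 0, so a shift of 1 library moves the others the opposite way and these values are not separate. By size of the 6 h effect, the median washout effect was 0.27 for the 32 genes that fell by over 3 log2 units, 0.20 for the 484 that fell by 1 to 2, -0.38 for the 282 that rose by 1 to 2 and -0.98 for the 24 that rose by over 2. With that replicate left out these medians were 0.25, 0.12, -0.23 and -0.61.

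**Figure D3:**
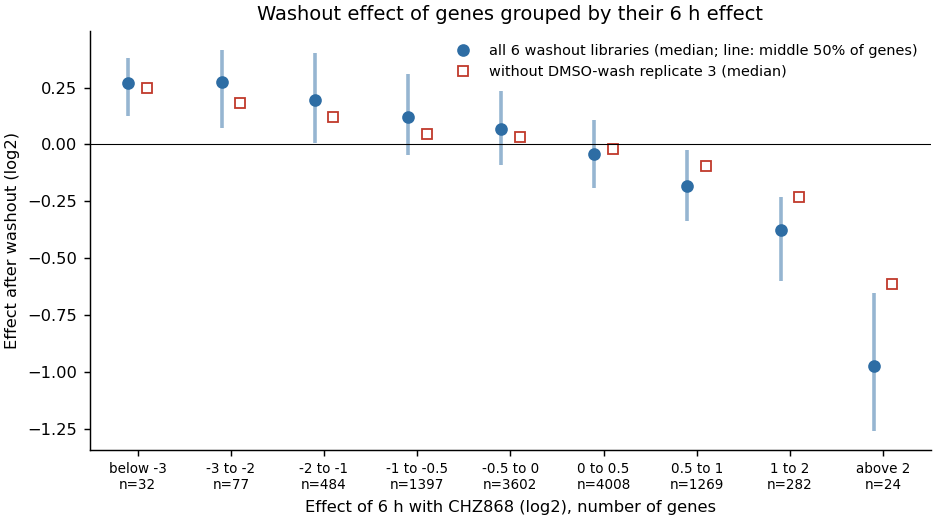
Median washout effect (y axis, log2) of genes grouped by their 6 h effect (x axis, log2, with the number of genes), with all 6 washout libraries (circles, with the middle 50% of genes as lines) and without DMSO-wash replicate 3 (squares). Medians go from 0.27 at the left to -0.98 at the right, and from 0.25 to -0.61 without that library.

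Most direct targets and feedback inhibitors of STAT5 were low at 6 h, and those with the deepest falls were near control level after washout. Of 20 listed STAT5 targets, 16 were in both tables. Of these, 14 fell and 2 rose at 6 h, where 26.4% of all genes fell and 26.8% rose (median -1.29, against -0.00077 over all genes). After washout none was higher and 1, Cebpb, was lower, where 1.96% and 2.07% of all genes were (median -0.02, against 0.0047 over all genes). Without DMSO-wash replicate 3, none was higher and 3 of the 16 were lower (all genes 6.68% and 5.87%, median of the list -0.04). All 9 members that had moved by 1 log2 unit or more were near 0 after washout, with washout effects from -0.08 to 0.33. For 8 of these 9 the 95% interval lay short of 25% of the 6 h effect.

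Socs1, a SOCS-box protein that blocks JAK kinases (chromosome 16, 10782240 to 10785536, minus strand, GRCm38), fell the furthest of them. It was at 4.41, 4.62 and 4.59 log2 CPM in DMSO-treated and at -0.48, 0.02 and -1.53 in CHZ868-treated libraries, the last corresponding to 5, 6 and 1 reads. In the washout experiment it was at 4.04, 4.17 and 4.04 in DMSO-wash and at 4.07, 4.08 and 3.96 in CHZ-wash libraries. The groups were far apart at 6 h and overlapped after washout. The 6 h effect was -5.20 ± 0.37 (SE, n = 3 each, adjusted p = 2.4e-08 by limma) and the washout effect -0.05 ± 0.14 (adjusted p = 0.86), and the 2 differed by 5.15 ± 0.40 (adjusted p = 5.2e-08).

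Pim1, a serine/threonine kinase that promotes survival (chromosome 17, 29490753 to 29496112, plus strand), was at 8.64, 8.69 and 8.72 log2 CPM in DMSO-treated and at 5.34, 5.48 and 5.63 in CHZ868-treated libraries. After washout it was at 8.49, 8.47 and 8.10 in DMSO-wash and at 8.56, 8.49 and 8.46 in CHZ-wash libraries, where the groups overlapped. Its effects were -3.20 ± 0.08 at 6 h (adjusted p = 2.6e-13) and 0.14 ± 0.11 after washout (adjusted p = 0.44). Its relative Pim2 had effects of -2.56 ± 0.17 and 0.07 ± 0.11, with reads that may be shared with Gm21182, which is 94.7% identical over 798 bases.

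Cish, whose protein binds cytokine receptors and competes with STAT5, was at 7.41, 7.48 and 7.40 in DMSO-treated and 5.89, 6.18 and 6.04 log2 CPM in CHZ868-treated libraries. The DMSO-wash libraries had 7.09, 7.02 and 7.07 and the CHZ-wash libraries 7.16, 7.03 and 7.003 log2 CPM, with a washout effect whose 95% interval lay between -0.18 and 0.18. Its 6 h effect of -1.39 was thus bounded to at most 0.18 in its direction. Small washout effects beside deep falls were also those of Bcl2l1, which encodes the survival protein BCL-XL (-1.69 at 6 h, -0.05 after washout), of Id1, an inhibitor of bHLH factors (-2.24 and 0.02), of the cytokine Osm (-2.46 and 0.33, interval -0.08 to 0.73), of Socs3 (-1.47 and -0.08) and of the cyclin Ccnd2 (-1.18 and 0.19), none of which passed the test after washout. Milder 6 h falls of Socs2 (-0.66) and Bcl2 (-0.45) stood beside washout effects of -0.05 and 0.10.

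Myc was 1 of 3 listed targets, with Mcl1 and Ccnd3, whose effects at 6 h and after washout did not differ past the threshold. The 6 h fall was 0.27 ± 0.07 (adjusted p = 0.0027), and its CHZ-wash libraries at 8.89, 8.86 and 8.90 log2 CPM all lay under the DMSO-wash libraries at 9.31, 9.08 and 9.86. The washout effect of -0.53 ± 0.16 missed the threshold (adjusted p = 0.078), while it passed at -0.31 without DMSO-wash replicate 3 (adjusted p = 0.013), at -0.70 without DMSO-wash replicate 2 (adjusted p = 0.010) and with a replicate block (adjusted p = 0.042). The 2 effects of Myc differed by -0.26 ± 0.19 (adjusted p = 0.26), by -0.43 without DMSO-wash replicate 2 (adjusted p = 0.027) and by -0.04 without DMSO-wash replicate 3 (adjusted p = 0.76), so the size of this difference rested on single controls. The row of mouse Jak2, in which reads of the human transgene may or may not have been counted, had effects of 0.19 ± 0.06 and 0.11 ± 0.09 that differed by -0.08 (adjusted p = 0.58).

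**Figure D4:**
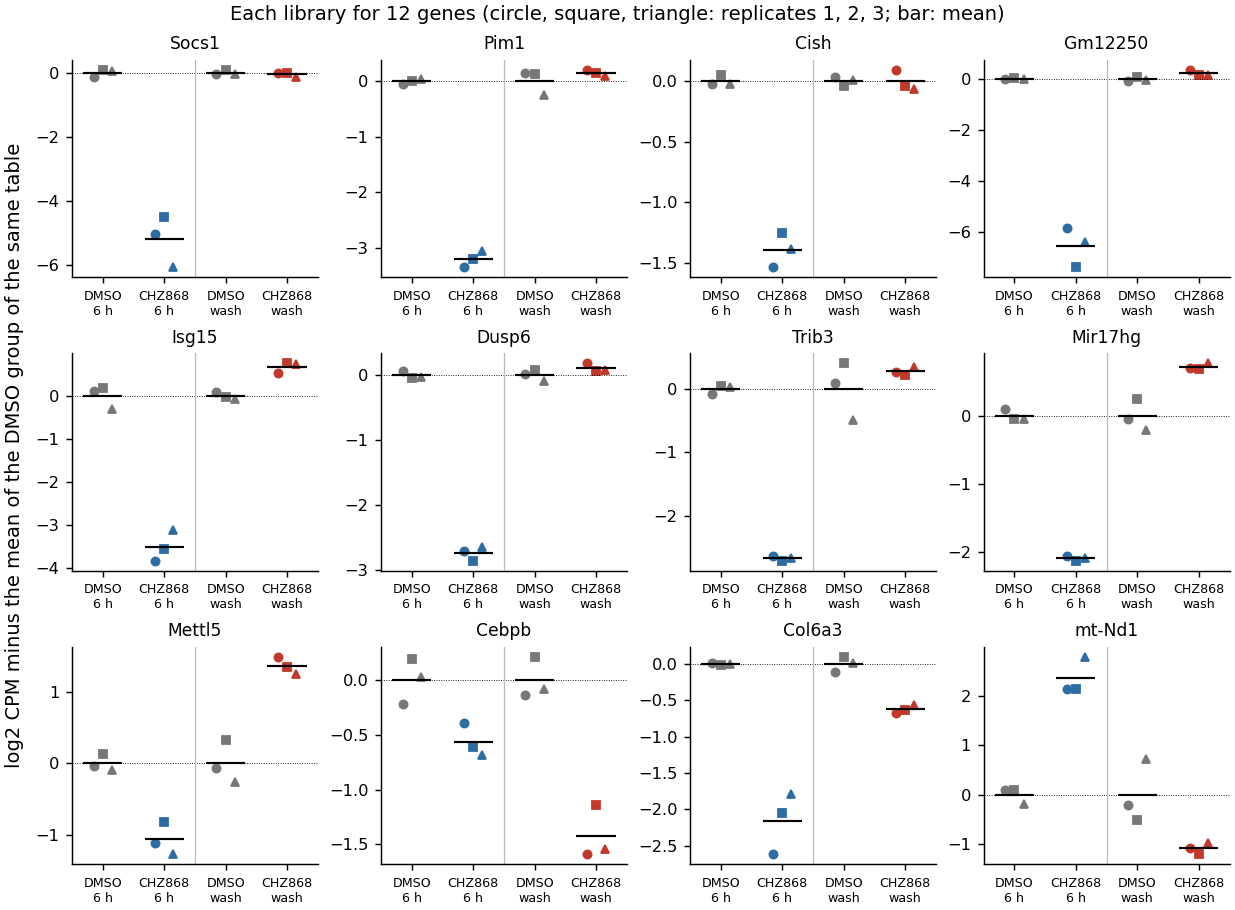
Level of 12 genes in each of the 12 libraries (y axis, log2 CPM minus the mean of the DMSO group of the same table; points are libraries, bars are means). Socs1, Pim1, Cish, Gm12250, Dusp6 and Trib3 are low only in the 6 h CHZ868 libraries, Isg15, Mir17hg and Mettl5 are low there and above their controls after washout, Col6a3 is partly low and Cebpb lowest after washout, and mt-Nd1 is high at 6 h and low after washout.

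Among the deepest falls at 6 h were those of interferon-inducible GTPases, large and small GTPases (GBP and IRG families) that attack the vacuoles of intracellular pathogens, and their washout effects were small beside them. Of 23 listed genes 22 were in both tables, and all 22 fell at 6 h (all genes 26.4%), by 1.28 to 6.55 log2 units (median -3.23). After washout 2 were higher, Iigp1 and Ifi47 (all genes 1.96%), none was lower, and the median was 0.24. When DMSO-wash replicate 3 was left out, 9 were higher (all genes 6.68%) and none lower (median 0.24). The washout effect was above 0 in 19 of the 22, and the washout groups did not overlap for 16, where 31.0% of all genes did not. All 22 lay near 0 by share. Several are close copies of each other (Tgtp1 and Tgtp2, Gm12185 and its neighbours), so their reads may have been divided among them.

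Gm12250, an IRG family locus that GENCODE annotates as a processed pseudogene (chromosome 11, 58187739 to 58189012, plus strand), had the lowest 6 h effect of the class. The RefSeq start used for its promoter above lies upstream of this GENCODE locus, so the motifs shown are not directly before it. Gm12250 was at 6.34, 6.37 and 6.35 log2 CPM in DMSO-treated and at 0.50, -1.04 and -0.05 in CHZ868-treated libraries. The DMSO-wash libraries had 6.09, 6.24 and 6.13, and the CHZ-wash libraries 6.51, 6.29 and 6.31 log2 CPM. After washout every CHZ868 library was thus slightly above every control. The effects were -6.55 ± 0.31 (adjusted p = 2.7e-10) and 0.21 ± 0.10 (adjusted p = 0.21). Ifi47, another IRG GTPase, fell by 2.97 at 6 h and was at 7.74, 7.51 and 7.51 log2 CPM in CHZ-wash against 7.01, 7.16 and 6.80 in DMSO-wash libraries, a washout rise of 0.59 ± 0.11 (adjusted p = 0.032). Iigp1, a further GTPase of the IRG family, fell by 4.59 and rose by 0.38 ± 0.09 after washout (adjusted p = 0.041).

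Most of the wider interferon response also fell at 6 h. Of 32 genes in both tables (40 listed) 31 fell and 1, Irf5, rose at 6 h (all genes 26.4% and 26.8%, median of the list -1.71). After washout 2 were higher, Isg15 and Trim30a, 1 was lower, Lgals3bp (all genes 1.96% and 2.07%), and the median was 0.18. These numbers were 9, 1 and 0.20 without DMSO-wash replicate 3 (all genes 6.68% higher and 5.87% lower). Of the 26 that had moved by 1 log2 unit or more, 22 were near 0 after washout and 4 overshot. Isg15, a ubiquitin-like modifier, was at 4.53, 4.61 and 4.12 log2 CPM in DMSO-treated and at 0.60, 0.86 and 1.30 in CHZ868-treated libraries. It was then at 4.01, 3.88 and 3.84 in DMSO-wash and at 4.45, 4.67 and 4.65 in CHZ-wash libraries, above all controls. Its effects were -3.50 ± 0.26 at 6 h and 0.68 ± 0.14 after washout (adjusted p = 0.033). Trim30a, an interferon-induced TRIM protein, had effects of -1.10 and 0.46 (adjusted p = 0.041). Irf1, a transcription factor of this response, had -2.40 and 0.03.

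Of the genes with a promoter in the RefSeq table, GAS matches stood in 8 of 12 GTPase promoters (66.7%) and ISRE matches in 11 of 12 (91.7%), and in 7 and 10 of 23 interferon response promoters (30.4% and 43.5%). Among all 8194 genes in both tables with a promoter, 8.32% held a GAS and 3.89% an ISRE match. Of the 373 that fell by 1 log2 unit or more at 6 h, 13.4% and 12.1% did, and of the 175 that rose by as much 10.3% and 7.43% did. GAS matches were in 2 of 11 STAT5 target promoters, Cish and Socs3. They were also in 4 of 14 promoters of listed NF-kB genes (28.6%) and 6 of 24 of ATF4 response genes (25%), close to the share of the interferon response. Each of the remaining lists searched was at 12.5% or less. A GAS share of this size was thus not particular to the interferon response list. These are letter matches in 300 bases, paralogous promoters share sequence, and a match is not a bound site.

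Antigen presentation genes of the MHC class I pathway fell by less and were split. Of 23 genes 17 fell and 4 rose at 6 h (all genes 26.4% and 26.8%, median of the list -0.80), and 1, the chaperone Pdia3, which had risen by 0.75, was lower after washout (all genes 2.07%, median of the list 0.03, and -0.06 without DMSO-wash replicate 3). That fit had 1 member higher and 4 lower after washout, where 6.68% and 5.87% of all genes were. Nlrc5, the transactivator of the MHC class I genes, had effects of -2.21 and 0.22. B2m, the invariant light chain, moved the other way, at 10.26, 10.40 and 10.45 log2 CPM in DMSO-treated and 11.76, 11.65 and 11.47 in CHZ868-treated libraries (effect 1.25 ± 0.08). After washout it was at 11.07, 10.86 and 11.47 in DMSO-wash and 10.65, 10.81 and 10.81 in CHZ-wash libraries, with an effect of -0.38 ± 0.14 that missed the threshold (adjusted p = 0.14).

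Among the genes upstream, 27 of 28 listed JAK-STAT chain members (receptors, kinases, STATs and phosphatases) were in both tables. Of these 10 rose and 12 fell at 6 h, beside 26.8% and 26.4% of all genes. None passed the test after washout, near the 1.96% higher and 2.07% lower of all genes. The fit without DMSO-wash replicate 3, where 6.68% of all genes were higher and 5.87% lower, had 1 higher and 1 lower (Ptpn1, a tyrosine phosphatase). Il2rg, the common gamma chain of cytokine receptors, had the highest 6 h effect among them at 1.45, with -0.32 after washout (adjusted p = 0.38).

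Genes of ERK signalling and of the immediate early response also fell. Of 31 listed, 22 were in both tables, of which 16 fell and 3 rose at 6 h (all genes 26.4% and 26.8%, median of the list -0.92). After washout 1, Jund, was lower (all genes 2.07%, median of the list -0.01). Without DMSO-wash replicate 3, 1 was higher and 2 were lower (all genes 6.68% and 5.87%, median of the list 0.005). Dusp6, a phosphatase induced by ERK that inactivates it, was at 7.04, 6.92 and 6.94 log2 CPM in DMSO-treated and 4.26, 4.12 and 4.32 in CHZ868-treated libraries, then at 8.29, 8.36 and 8.19 in DMSO-wash and 8.46, 8.33 and 8.35 in CHZ-wash libraries. Its effects were -2.73 ± 0.09 and 0.10 ± 0.08, with overlapping groups after washout. Egr3, an early growth response factor, had -4.48 and 0.27. Jund, an AP-1 subunit, was not changed past the threshold at 6 h (0.20, adjusted p = 0.088) and was lower after washout, at 5.72, 5.79 and 5.88 against 6.44, 6.63 and 6.43 log2 CPM in its controls (-0.70 ± 0.10, adjusted p = 0.018).

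The ATF4 response, which raises amino acid uptake and synthesis, fell almost as a whole at 6 h. Of 28 genes in both tables (34 listed) 27 fell and 1 rose at 6 h (all genes 26.4% and 26.8%, median of the list -1.04). After washout none passed the test, which in a list of this size is near the 1.96% higher and 2.07% lower of all genes. In sign, 12 effects lay above 0 and 16 below (median -0.07). Without DMSO-wash replicate 3, 5 were lower (all genes 5.87%) and none higher (median -0.12). Trib3, a pseudokinase that damps ATF4 signalling, was at 6.72, 6.85 and 6.84 log2 CPM in DMSO-treated and 4.16, 4.09 and 4.14 in CHZ868-treated libraries. Its DMSO-wash libraries spread widely, at 6.22, 6.54 and 5.64, around CHZ-wash libraries at 6.41, 6.36 and 6.49, so its washout effect of 0.28 ± 0.18 was within the spread, and without replicate 3 it was 0.04. Atf4 itself had effects of -1.37 and 0.10, and the cystine carrier Slc7a11 -2.04 and 0.44 (adjusted p = 0.12). For 9 of the 16 members that had moved by 1 log2 unit the interval lay short of 25% of the 6 h effect, against 20 of 22 GTPases and 23 of 26 interferon response genes. The 6 h falls were deeper in the GTPase list (median -3.23) than in the ATF4 list. A bound set by share is met more easily by a larger 6 h effect, so these counts do not rank recovery.

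MYC targets and ribosome biogenesis genes fell moderately at 6 h. Of 37 genes 26 fell and 8 rose at 6 h (all genes 26.4% and 26.8%, median of the list -0.57). After washout 1 was higher and 2 were lower (all genes 1.96% and 2.07%, median of the list 0.01). Without DMSO-wash replicate 3, 3 were higher and 6 lower (all genes 6.68% and 5.87%, median of the list -0.05). Polr1b, a subunit of RNA polymerase I, had effects of -1.50 and 0.29 (adjusted p = 0.088). With all libraries the genes that were lower both times were Srm, the spermidine synthase (-0.68 and -0.36, adjusted p = 0.041), and Bop1, a factor of 60S ribosome assembly (-0.43 and -0.36, adjusted p = 0.042). Tfrc, the transferrin receptor, was not called at 6 h (-0.11) and rose after washout (0.44 ± 0.09, adjusted p = 0.036).

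**Figure D5:**
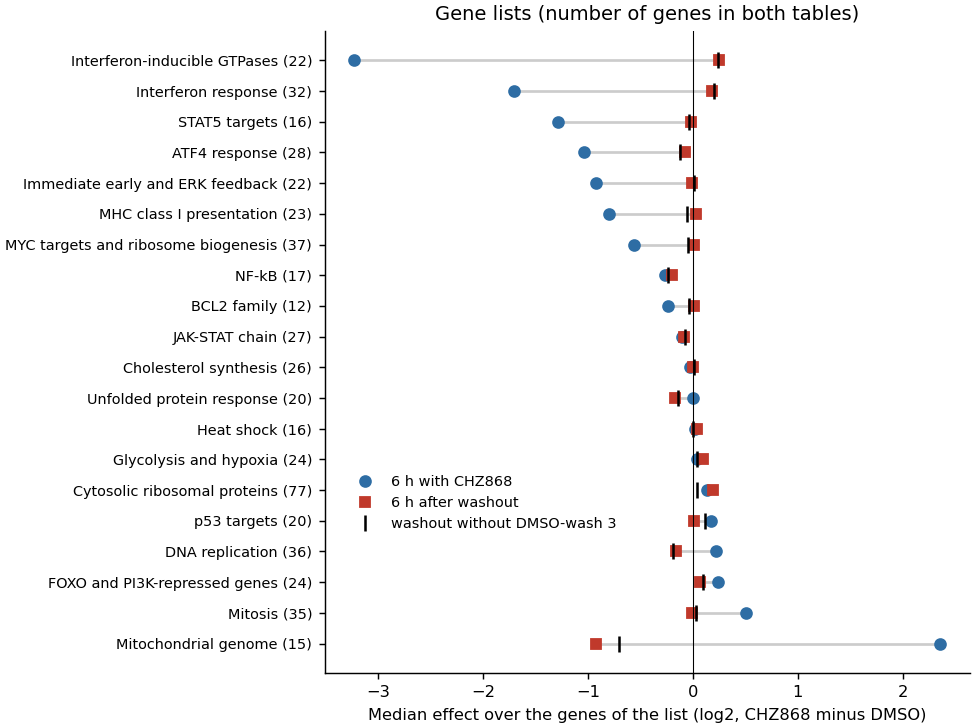
Median effect of each gene list (x axis, log2, CHZ868 minus DMSO) at 6 h (circles), after washout (squares) and after washout without DMSO-wash replicate 3 (ticks), with the number of genes in both tables in brackets. The GTPase list goes from -3.23 to 0.24 and the STAT5 list from -1.29 to -0.02, while the mitochondrial genome goes from 2.36 to -0.93.

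Cell cycle genes were among those that rose at 6 h. Of 36 DNA replication genes 24 rose and none fell (all genes 26.8% and 26.4%, median of the list 0.22). After washout 1, the licensing factor Cdt1, was lower, a share near the 2.07% of all genes, and 28 of 36 effects were below 0 (median -0.16). Without DMSO-wash replicate 3, 7 of the 36 were lower and none higher, where 5.87% and 6.68% of all genes were (median -0.19). Of 35 mitosis genes 26 rose and 1 fell at 6 h (median 0.51), and after washout 1, Plk1, was lower, again near the 2.07% of all genes (median -0.01). With that replicate left out, 4 were higher and 4 lower (median 0.03). Plk1, a kinase that drives mitotic entry, was at 7.29, 7.38 and 7.23 log2 CPM in DMSO-treated and 8.04, 8.13 and 8.28 in CHZ868-treated libraries. After washout it was at 6.82, 6.90 and 6.86 in CHZ-wash libraries, under its controls at 7.24, 7.24 and 7.46 (-0.46 ± 0.09, adjusted p = 0.033). Nusap1, a spindle protein, rose by 1.23 at 6 h and had a washout effect of -0.26 ± 0.15 with overlapping groups. In bulk RNA a change in the share of cells in a phase and a change of RNA per cell cannot be told apart.

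Genes repressed by PI3K signalling through FOXO factors (24 in both tables) rose in 13 cases and fell in 4 at 6 h (all genes 26.8% and 26.4%). None was called after washout, near the 1.96% higher and 2.07% lower of all genes. Without DMSO-wash replicate 3, 3 were higher and none lower after washout (all genes 6.68% and 5.87%). Tob1, an antiproliferative factor, went from 1.10 at 6 h to -0.06 after washout. In the BCL2 family (12 genes) 3 rose and 6 fell at 6 h (all genes 26.8% and 26.4%) and 1 was lower after washout (all genes 2.07%). That was Bak1, a pore-forming effector of apoptosis, which had risen by 0.93 at 6 h and had a washout effect of -0.68 ± 0.14 (adjusted p = 0.038, -0.50 without DMSO-wash replicate 3). The lists of NF-kB, p53, heat shock, unfolded protein, cholesterol and glycolysis genes (17, 20, 16, 20, 26 and 24 genes) had median 6 h effects between -0.27 and 0.18. After washout they held 0, 1, 0, 0, 1 and 2 higher and 3, 1, 2, 2, 1 and 0 lower members. Of all genes 1.96% were higher and 2.07% lower, so counts of 0 or 1 in lists of this size are near that background. Counts of 2 or 3 lay above it. Washout effects were below 0 for 13 of 17 NF-kB genes (median -0.20) and 17 of 20 unfolded protein genes (median -0.17). Without DMSO-wash replicate 3 the counts were 0, 1, 3, 0, 1 and 5 higher and 4, 2, 2, 6, 2 and 2 lower (all genes 6.68% and 5.87%). Among members of these lists the NF-kB regulator Tnip1 went from 0.72 to -0.59 and the chaperone partner Stip1 from 0.80 to -0.54. The cholesterol enzyme Nsdhl went from 1.11 to -0.67, and each was past the threshold both times. Pgk1, a glycolytic enzyme, went from -0.28 to 0.54.

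Of the 177 overshoot genes that had fallen at 6 h, 21 also passed the washout test (11.9%, all genes 1.96% higher). Of the 196 that had risen, 32 passed it (16.3%, all genes 2.07% lower). The class was set by the same washout effect, so these shares are no separate evidence of overshoot. Among the 21, the 5 with the deepest falls under the naming rule were Ifi44l, Mir17hg, Gm28875, Tspoap1 and Ffar2. Mir17hg, the host transcript of the miR-17-92 cluster (chromosome 14, 115042879 to 115046727, plus strand), was at 5.55, 5.40 and 5.41 log2 CPM in DMSO-treated and 3.40, 3.33 and 3.37 in CHZ868-treated libraries. It was at 5.50, 5.80 and 5.36 in DMSO-wash and 6.26, 6.25 and 6.33 in CHZ-wash libraries, with no overlap. The effects were -2.09 ± 0.13 and 0.73 ± 0.12 (adjusted p = 0.030 after washout, 0.63 and 0.0017 without DMSO-wash replicate 3). Ifi44l, an interferon-induced gene, had -2.65 and 0.88 ± 0.22 (adjusted p = 0.0495). Ffar2, a receptor for short-chain fatty acids, had -1.53 and 0.53 ± 0.11 (adjusted p = 0.037), and Tspoap1 had -1.81 and 0.77 ± 0.13 (adjusted p = 0.032).

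Washout calls that were called the other way at 6 h, or not called there, were ranked where the washout groups did not overlap. The 5 highest were Gm33051, Mettl5, Rpl22l1, Gm28370 and Cav2, between 1.21 and 1.53. All 5 genes had fallen at 6 h, but genes called higher both times were left out of this ranking. Mettl5, a methyltransferase of 18S ribosomal RNA (chromosome 2, 69871198 to 69885615, minus strand), was at 6.23, 6.40 and 6.17 log2 CPM in DMSO-treated and 5.16, 5.45 and 5.00 in CHZ868-treated libraries. It was at 4.60, 4.99 and 4.41 in DMSO-wash and 6.15, 6.00 and 5.91 in CHZ-wash libraries. The CHZ-wash libraries were thus clear above all their controls, while the CHZ868-treated ones were below theirs (-1.07 ± 0.11 and 1.36 ± 0.15, adjusted p = 0.011 after washout, and 1.23 without DMSO-wash replicate 3). The DMSO-wash values were low beside the DMSO-treated ones and the CHZ-wash values were not far from these, but levels were compared within an experiment only. Mettl5 also overlaps Ssb on the other strand and Gm13625 on the same strand, so its reads may not be separate. Rpl22l1, a paralogue of a ribosomal protein, and the antisense Gm33051 overlap on opposite strands of chromosome 3, so their reads may not be separate. They had effects of -0.67 and 1.26 ± 0.20, and of -0.80 and 1.53 ± 0.17. Cav2, a caveolar coat protein, had -0.53 and 1.21 ± 0.23 (adjusted p = 0.032).

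Among the strongest rises at 6 h were those of the mitochondrial genome, a list chosen after its values were seen. Of its 15 genes, 14 rose at 6 h (all genes 26.8%, median of the list 2.36) and all 15 had a washout effect below 0 (median -0.93), of which 4 passed the test (all genes 2.07% lower), mt-Co2, mt-Nd1, mt-Rnr1 and mt-Rnr2. Without DMSO-wash replicate 3 the median was -0.71, 9 passed (all genes 5.87%) and 14 were below 0. mt-Nd1, a subunit of respiratory complex I, was at 9.91, 9.92 and 9.63 log2 CPM in DMSO-treated and 11.96, 11.96 and 12.61 in CHZ868-treated libraries. In the DMSO-wash libraries it was at 11.26, 10.95 and 12.20, and in CHZ-wash libraries at 10.40, 10.27 and 10.49. The washout effect of -1.08 ± 0.25 (adjusted p = 0.043) was -0.72 without DMSO-wash replicate 3 (adjusted p = 0.00059). These are the same reads as in the mitochondrial shares above, which move with each effect. The nuclear pseudogene Gm13341, 95.9% identical to mt-Co2 over 684 bases, moved with them (4.95 and -2.26). Gm3226 (3.03 and -1.60, 98.7% identical to Tuba1b), Ybx1-ps2 (2.57 and -1.27, 92.5% identical to Ybx1) and Gm9502 (1.62 and -1.53) had the same pattern and share sequence with other genes, so their values are uncertain. Of those that rose and were near 0 after washout, Muc6, a gel-forming mucin, went from 5.76, 5.61 and 5.77 to 7.86, 7.97 and 7.86 log2 CPM at 6 h (effect 2.18 ± 0.07). Its washout libraries, at 2.99, 2.22 and 3.78 in DMSO-wash and 3.31, 2.73 and 3.04 in CHZ-wash, spread so far that an effect from -0.72 to 0.77 was allowed. Cytosolic ribosomal protein genes, also listed after the values were seen, had medians of 0.13 and 0.19 over 77 genes. Their washout median was 0.04 without DMSO-wash replicate 3.

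Few genes with a 6 h effect of at least 1 log2 unit stayed changed. With a limit of 0.58 instead, 168 genes were partly kept and 11 kept. Of the 20 partly kept genes, 1 passed the washout test, Col6a3, which encodes a chain of type VI collagen (chromosome 1, 90765923 to 90843971, minus strand). It was at 5.62, 5.59 and 5.61 log2 CPM in DMSO-treated and 2.99, 3.56 and 3.81 in CHZ868-treated libraries, then at 3.87, 4.08 and 4.004 in DMSO-wash and 3.31, 3.35 and 3.43 in CHZ-wash libraries, lower without overlap both times. The effects were -2.15 ± 0.17 and -0.62 ± 0.15 (adjusted p = 0.047, -0.61 without DMSO-wash replicate 3), which differed by 1.53 (adjusted p = 8.7e-05). The others with the largest 6 h effects, Shank3, Gm17334, Slc6a9 and Gm19412 among genes that fell, had washout effects of -0.65, -0.42, -0.43 and -0.36 with adjusted p of 0.14, 0.11, 0.10 and 0.062. Slc6a9, a glycine carrier, is also on the ATF4 list. On the other strand Slc6a9 overlaps Ccdc24, Gm17334 overlaps Irf1 and Gm19412 overlaps Tapbp, so reads of these genes may not be separate. Of those that rose, Gm11843, F630028O10Rik, Rbbp9 and Stradb had washout effects of 0.31 to 0.50, with adjusted p from 0.22 to 0.53, so none of these 4 was shown to stay high. Leaving out DMSO-wash replicate 3 brought Gm19412 (-0.40, adjusted p = 0.017) and Gm11843 (0.51, adjusted p = 0.033) past the threshold.

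Of the 456 washout calls in both tables, 282 were called in the opposite direction at 6 h (129 higher and 153 lower after washout), 25 in the same direction (11 and 14) and 149 not at 6 h. Without DMSO-wash replicate 3 the numbers were 694, 222 and 506 of 1422, so the share in the opposite direction went from 61.8 to 48.8% and that in the same direction from 5.48 to 15.6%. The 25 had small 6 h effects, with a median size of 0.42 log2 units and 1 of at least 1 unit, Col6a3. For 23 of the 25 the 2 effects did not differ past the threshold. These genes, chosen after their values were seen, include Aldh1a1, a retinaldehyde dehydrogenase (0.45 ± 0.06 and 0.62 ± 0.08, adjusted p = 0.015 after washout), Lgals1, a galectin (0.44 and 0.45), Trp53inp1, a stress-induced p53 partner (0.29 and 0.45), H2-Ab1, an MHC class II chain (-0.39 and -0.51), and Eif4ebp1, a repressor of cap-dependent translation (-0.42 and -0.42).

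Cebpb, a C/EBP transcription factor of myeloid and macrophage genes (chromosome 2, 167688915 to 167690418, plus strand), was lower after washout than under continuous CHZ868, each against its own control. It was at 4.22, 4.63 and 4.47 log2 CPM in DMSO-treated and 4.05, 3.83 and 3.76 in CHZ868-treated libraries. The DMSO-wash libraries had 4.94, 5.28 and 4.98 and the CHZ-wash libraries 3.48, 3.93 and 3.53 log2 CPM. The groups did not overlap either time, and the gap was wider after washout. Cebpb overlaps Tmem189 on the other strand, so its reads may not be separate. The effects were -0.56 ± 0.16 (adjusted p = 0.0077) and -1.42 ± 0.16 (adjusted p = 0.012), and they differed by -0.86 ± 0.23 (adjusted p = 0.0052). Leaving out single libraries gave washout effects between -1.56 and -1.31 and adjusted p up to 0.12, and Cebpb was the 1 call left without CHZ-wash replicate 2.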

How the data were processed

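RNA was measured by bulk RNA-seq from 12 libraries. The authors deposited log2 CPM values, and a separate table was made for each experiment, so values were compared within a table only. The study's methods name kallisto and GRCm38 with TMM scaling and a filter on low CPM, while the submitters' processing notes name STAR 2.7.3a, GRCm39 and edgeR 4.0.16, and which of them made the tables was not settled. Less a constant of 0.222 CPM, values under 200 reads were whole multiples of 1 read (tolerance 0.1 read), from which depth was recovered. The prefiltered tables hold almost no gene that was silent in controls. The counting strand is not given in the sources used here.

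Effects were fitted with limma 3.58.1 (limma-trend, R 4.3.3) with p-values adjusted by Benjamini and Hochberg's method across each whole table and a call at an adjusted p under 0.05, and the difference of effects in 1 fit of 12 libraries. The scripts were tested on simulated data. The members, gene lists and tests were chosen with earlier results of these data known. Genes were named by rule: 15 JAK2-STAT5 genes and, in each class and direction, the 5 largest 6 h effects whose 6 h groups did not overlap. For the overshoot class the washout effect also had to be called. Also named were the 5 highest and 5 lowest washout effects among calls not called at 6 h or called the other way. The washout groups of these did not overlap. Other genes named were list members or, where stated, chosen after their values were seen. A few genes that the rule or the lists name are not reported here. Replicate numbers did not pair the libraries, with correlations of same-numbered deviations from -0.054 to 0.051. Alternatives were log2(CPM + 1), a filter on the mean, quantile scaling, voom on recovered reads, no trend, other thresholds, a replicate block and each library left out. Intervals are at 95%. Near copies were found with BLAST between GENCODE M21 transcripts, from which positions (GRCm38) were taken for 11325 of 11850 symbols.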

Additional observations from a re-analysis of the deposited data

Results flagged for a closer look

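The effects at 6 h and after washout, each against its own controls, differed by the test of the difference (limma, 12 libraries) for 5261 genes, and 282 genes were called in opposite directions in the separate fits. The differences are given as the washout effect minus the 6 h effect, in log2 units. They rest on a 6 h effect that also chose the classes, and length of exposure, washing and experiment cannot be told apart in them.

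Among STAT5 targets and related genes the difference was 1.39 for Cish, 5.15 for Socs1, 0.60 for Socs2, 1.39 for Socs3, 3.35 for Pim1, 2.63 for Pim2, 2.26 for Id1, 2.79 for Osm, 0.55 for Bcl2, 2.49 for Serpina3g, 0.65 for Tgm2 and 0.89 for Actg1. Among GTPase loci it was 6.76 for Gm12250, 6.44 for BC023105, 5.47 for Gm5970 and 5.11 for Gm12185, the largest differences of genes that had fallen and were near 0 after washout beside that of Socs1. Genes that had fallen and overshot differed by 3.53 for Ifi44l, 2.81 for Mir17hg, 2.82 for Gm28875, 2.58 for Tspoap1 and 2.07 for Ffar2.

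Genes that had risen at 6 h had negative differences: -7.21 for Gm13341, -4.62 for Gm3226, -3.85 for Ybx1-ps2, -3.15 for Gm9502, -3.37 for mt-Co2, -3.44 for mt-Nd1, -2.94 for mt-Rnr2, -3.41 for mt-Atp6, -2.37 for mt-Co3, -2.73 for Gm50357, -2.15 for Muc6 and -2.46 for Gm10925. The mitochondrial share of reads moved with these values.

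Partly kept genes still differed between the effects, by 1.87 for Shank3, 1.53 for Col6a3, 1.18 for Gm17334, 1.13 for Slc6a9, 0.88 for Gm19412 and -0.77 for Gm11843. The highest washout effects under the naming rule went with differences of 2.34 for Gm33051, 2.42 for Mettl5, 1.94 for Rpl22l1, 2.16 for Gm28370 and 1.75 for Cav2. Cebpb, lower after washout than at 6 h, differed by -0.86, and S100a6, a calcium-binding protein not called at 6 h, by 1.26.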

How the results depend on the processing

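The count of genes called after washout was 457 with all libraries, 0 without the mean-variance trend (2562 at an unadjusted p under 0.05) and 0 at an adjusted p under 0.01, so that the numbers called in the same direction, the opposite direction and not at 6 h were then 0, 0 and 0. Leaving out single libraries gave 0 to 1426 calls, of which 0 to 222 were in the same direction, 0 to 885 in the opposite direction and 0 to 506 not called at 6 h. The 6 h count then lay between 5081 and 6426 and that of the difference between 4663 and 5583. Of the classes, overshoot had 226 to 446 genes, near 0 had 430 to 642, partly kept had 16 to 29 and kept had 0 to 1. The partly kept class had 9 genes on the log2(CPM + 1) scale, 10 with a mean log2 CPM of at least 3 and 13 after quantile normalization, and 1 gene was kept after quantile normalization and 1 with voom weights. A 6 h effect of at least 0.58 gave 1245 overshoot, 1344 near 0, 168 partly kept and 11 kept genes, and a share limit of 0.5 gave 106 overshoot, 791 near 0 and 0 partly kept. Causes of these moves were not tested. A replicate block, for numbers that did not pair the libraries, gave 6192 calls at 6 h, 539 after washout and 5109 for the difference. Of the 44 named genes called after washout, 44, 43 and 44 lost the call when CHZ-wash replicate 1, 2 or 3 was left out, 44, 1 and 0 when DMSO-wash replicate 1, 2 or 3 was, and all 44 with no trend in the fit. Of 95 called at 6 h, 0 to 6 lost it without a library, and of 81 called for the difference none did. No called value took the opposite sign. Between libraries of 1 group the variance was 1.99 to 9.13 times that of read sampling.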
